A study of Mus musculus with 6 samples.

Results

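Epithelial cells can be told from leukocytes by their keratin filaments and, in the gut, by the actin-filled microvilli of the brush border, and the transcripts of 10 genes of this equipment were followed here. They are the keratins Krt8, Krt18, Krt19 and Krt20, the microvillus genes Vil1, Pls1, Espn, Myo1a and Ezr, and the adhesion molecule Epcam. They were taken by symbol from a table of 26110 genes, and all 10 were listed there. The table covers 6 bulk RNA-seq libraries of MHCIIhi cells sorted from the muscularis externa (ME), the muscle layer of the small bowel wall. The cells came from untreated female CX3CR1 GFP/+ mice, in which GFP replaces 1 allele of the chemokine receptor gene Cx3cr1 and thus reports it. There were 3 libraries of CX3CR1- and 3 of CX3CR1+ cells, named replicates 1 to 3 in the order of their library numbers. All 6 libraries share the genotype, the tissue and the MHCII gate, so that the GFP gate is what separates the groups. For each group the ME of 6 mice was combined, and separate pools for the single libraries are not given in the sources used here, so that p-values measure the spread between libraries, which may be technical. The labels call the cells dendritic cells, whereas the study calls them macrophages.

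Keratins of type II and type I pair with each other to build the intermediate filaments of epithelia. In simple epithelia Krt8 is the type II partner, Krt18 and Krt19 are common type I partners, and Krt20 is a type I keratin of differentiated cells of the gut lining. Each microvillus holds a core of parallel actin filaments that is bundled by villin (Vil1), plastin 1 or fimbrin (Pls1) and espin (Espn), tied to the membrane by the motor myosin 1a (Myo1a) and by ezrin (Ezr). Keratins 8, 18 and 19 and ezrin are also made by mesothelium, the lining of the outer bowel surface, and ezrin is made by leukocytes as well. Epcam joins neighbouring epithelial cells.

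Values are the deposited normalized values, which are not read counts, and means are given ± SD over the 3 libraries of a group (SD, n = 3 throughout). Libraries held about 5346381 to 17616761 reads as estimated from the smallest step of their values, and 3 reads were worth 1.39 to 5.36 on the normalized scale. The marker of the gate, Cx3cr1, was at 23.6 ± 4.80 in CX3CR1- against 366 ± 17.5 in CX3CR1+ cells, and the leukocyte gene Ptprc was at 3737 ± 836 and 4225 ± 342. Mitochondrial genes took 47.5 to 54.9% of the normalized total in CX3CR1- and 18.1 to 21.2% in CX3CR1+ libraries, which moved with the groups and whose part in the results was not tested. CX3CR1- replicate 2 was the shallowest of its group.

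All 10 genes had higher values in CX3CR1- cells and did not overlap between the groups. Log2FCs ran from 2.20 for Ezr to 10.10 for Krt20, where log2FC is the log2 fold change and a positive value means higher in CX3CR1- cells. All 10 passed the call, which asked for an absolute log2FC of 1 or more together with an adjusted p no larger than 0.05 (limma on log2(value + 1) over 17812 genes, Benjamini-Hochberg adjustment), and each was still called with any of the 6 libraries left out. Of all tested genes 12.2% were called higher and 8.15% lower in this comparison, and 20.3% had all CX3CR1- above all CX3CR1+ values. In 8 of the 10 genes the mean of CX3CR1+ cells was under 10, the mean that a gene needed over all libraries to be tested, so that they entered the test only through their CX3CR1- values and had to differ in this direction. Vil1 and Ezr would have passed on the CX3CR1+ values alone. For every one of the 10 genes the exact two-sided permutation test over libraries gave p = 0.1, the smallest that 3 libraries against 3 allow.

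**Figure D1:**
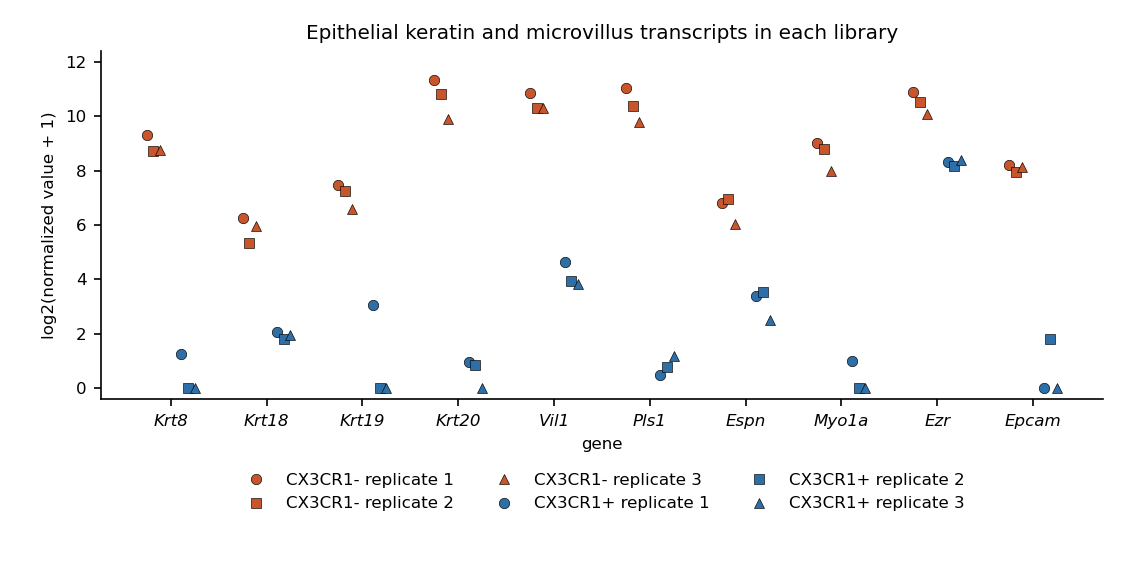
Level of each of the 10 genes as log2(normalized value + 1) in each library, with CX3CR1- libraries in orange and CX3CR1+ libraries in blue and 1 symbol shape per replicate. The CX3CR1- libraries lie above the CX3CR1+ libraries in all 10 genes. The gap is smallest for Ezr, which is the only gene above 100 in CX3CR1+ libraries.

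Krt20 showed the largest difference and Ezr the smallest, and Vil1 and Epcam stand for the microvillus and for cell adhesion. The 250 bases before the RefSeq transcription start of these genes are therefore shown (GRCm38.p6, 5′ to 3′ on the strand of the gene). The stretch of Krt20 is chr11:99438154-99438403 on the minus strand, that of Vil1 chr1:74409134-74409383 on the plus strand, that of Epcam chr17:87635729-87635978 on the plus strand and that of Ezr chr17:6782781-6783030 on the minus strand. Capitals mark matches to 7 short motifs searched on both strands, whose letters are spelled out after the sequences.
Krt20: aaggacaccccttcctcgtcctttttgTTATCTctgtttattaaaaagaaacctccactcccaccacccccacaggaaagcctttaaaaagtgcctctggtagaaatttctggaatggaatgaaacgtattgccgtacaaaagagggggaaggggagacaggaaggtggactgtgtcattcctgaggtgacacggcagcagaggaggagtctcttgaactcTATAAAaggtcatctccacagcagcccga
Vil1: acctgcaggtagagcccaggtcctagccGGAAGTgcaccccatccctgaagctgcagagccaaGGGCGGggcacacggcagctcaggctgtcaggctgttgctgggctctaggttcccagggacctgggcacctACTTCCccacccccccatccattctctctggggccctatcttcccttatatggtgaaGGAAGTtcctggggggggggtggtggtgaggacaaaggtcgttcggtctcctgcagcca
Epcam: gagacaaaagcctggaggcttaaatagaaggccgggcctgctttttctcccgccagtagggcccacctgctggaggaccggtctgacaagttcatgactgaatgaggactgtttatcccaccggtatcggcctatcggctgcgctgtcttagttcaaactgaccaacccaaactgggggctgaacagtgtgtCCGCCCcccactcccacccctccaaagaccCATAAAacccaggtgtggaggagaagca
Ezr: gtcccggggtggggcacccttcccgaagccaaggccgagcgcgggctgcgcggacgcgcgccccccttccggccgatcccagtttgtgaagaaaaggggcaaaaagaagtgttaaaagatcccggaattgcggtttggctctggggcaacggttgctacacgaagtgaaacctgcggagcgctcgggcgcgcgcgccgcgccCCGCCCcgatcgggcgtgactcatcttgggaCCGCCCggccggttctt
The Krt20 stretch holds a TATA box whose first base lies 29 bases before the start and a GATA match, read on the opposite strand, 223 bases before it. The Vil1 stretch holds 3 ETS matches and a GC box, and that of Epcam holds a GC box 58 bases and a CDX match 28 bases before the start. The Ezr stretch holds GC boxes at 48 and 17 bases before the start and has 67.2% G and C with 32 CpG dinucleotides, against a median of 52.4% and 6 CpG over all 32851 RefSeq promoters. The 11 windows of the 9 genes with an entry had a median of 59.2% and 5 CpG.

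From 250 bases before to 50 bases after the start, 2 of these 11 windows held the letters TATAAA of the TATA box. They were those of Krt20 and Krt8, against 13.6% of all promoters. The motif of the hepatocyte nuclear factor HNF4, searched as CAAAGTCC, was in 0 of the 11 windows and in 1.42% of all promoters. That of HNF1, searched as GTTAAT, was also in 0 of the windows and in 7.10% of all promoters. The motif of CDX factors, searched as CATAAA, was in the windows of Epcam and Espn and in 11.9% of all promoters. That of GATA factors, searched as AGATAA, was in the windows of Krt20 and Krt8 and in 11.2% of all promoters. The GC box of SP and KLF factors, searched as GGGCGG, was in 5 windows of 4 genes and in 35.7% of all promoters. The motif of ETS factors, searched as GGAAGT, was in 3 windows and in 23.8% of all promoters. In Krt8 the TATA match was found on both strands as overlapping letters. Their first bases lay 1 and 3 bases before the RefSeq start, so that they lie at that start itself, whereas the Krt20 match began 29 bases before its own. The RefSeq start used for Krt8 lies inside the gene as annotated in GENCODE M21, which extends further upstream to 102004482. The place of the Krt8 matches thus depends on the annotation. These matches describe the letters of the windows and were not tested against binding.

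Among the keratins, Krt20 (chr11:99428403-99438150, minus strand, 8 exons, positions from GENCODE M21 on GRCm38) had the highest values. It was at 2619, 1826 and 969 in CX3CR1- replicates 1, 2 and 3 and at 0.925, 0.820 and 0 in the CX3CR1+ replicates. About 3 reads of Krt20 were seen in all CX3CR1+ libraries together, and the mean of 1805 ± 825 in CX3CR1- cells was 2459 times the pooled CX3CR1+ level, with a 95% interval from 841 to 11923 that covers counting error in CX3CR1+ alone. The log2FC was 10.10 (standard error 0.44, adjusted p = 1.45e-06), and it depended on the pseudocount. A pseudocount of 10 in place of 1 gave the lowest log2FC of all alternatives for the 9 genes other than Ezr, from 2.39 for Krt18 to 7.31 for Krt20. Krt20 shares no 31-mer with another annotated gene, as annotated in GENCODE M21.

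Krt8 (chr15:101996698-102004482, minus strand, 9 exons), the type II keratin of the group, was at 637, 427 and 434 in the CX3CR1- replicates and at 1.39, 0 and 0 in the CX3CR1+ replicates. Its 3 reads in CX3CR1+ cells came from replicate 1, the most deeply sequenced library. The ratio of the CX3CR1- mean of 499 ± 119 to the pooled CX3CR1+ level was 680 (95% counting interval 233 to 3298), and the log2FC was 8.52 (standard error 0.48, adjusted p = 3.56e-06). Krt8 shares 36.0% of its stretches of 31 bases with other genes, mostly the pseudogene Krt8-ps with 32.2%, so that the share of reads that belongs to Krt8 itself is uncertain. It also overlaps the noncoding gene Gm36026 on the opposite strand, which holds 3.73% of these stretches. Neither Krt8-ps nor Gm36026 was listed among the genes with values.

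The type I keratins Krt18 and Krt19 were lower than Krt20 and were not at 0 in all CX3CR1+ libraries. Krt18 (chr15:102028180-102032027, plus strand, 7 exons) lies near Krt8 on the same chromosome and was at 76.2, 39.3 and 61.8 in CX3CR1- and at 3.24, 2.46 and 2.83 in CX3CR1+ replicates. About 12 reads stood behind the CX3CR1+ values, and the log2FC was 3.92 (standard error 0.51, adjusted p = 0.000367). Other genes hold 11.4% of its 31-mers, with 9.31% in the pseudogene Gm5200. Krt19 (chr11:100140810-100148665, minus strand, 6 exons), a small keratin without the usual tail domain, was at 179, 153 and 96.7 in CX3CR1- replicates. In CX3CR1+ cells it was at 7.35 in replicate 1 and listed at 0 in replicates 2 and 3, so that 1 library held all of its about 16 reads. Its log2FC was 6.10 (standard error 0.80, adjusted p = 0.000390), the largest error and adjusted p of the 10 genes, and it was 7.12 without CX3CR1+ replicate 1.

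The keratins were unequal in level within the CX3CR1- libraries. Per kb of the longest coding transcript, Krt20 was at 937 ± 428, Krt8 at 255 ± 60.8, Krt19 at 90.8 ± 26.8 and Krt18 at 41.1 ± 12.9. Krt20 made up 89.1, 88.4 and 82.8% of the summed type I level in replicates 1, 2 and 3. The summed type I level per kb of Krt18, Krt19 and Krt20 was 4.69, 4.91 and 2.74 times that of Krt8 in these libraries. The type II keratins Krt80, at 33.0 ± 13.2 per kb, and Krt7, at 13.2 ± 3.94 per kb, were left out of this ratio. It also carries the uncertainty of the Krt8 level from shared sequence.

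Of 19 further keratins, 7 were listed and 2 tested. Krt80, a type II keratin, was higher in CX3CR1- cells with 129 ± 51.8 against 26.0 ± 11.2, a log2FC of 2.27 (standard error 0.41, adjusted p = 0.00259). Krt7, the type II keratin of ducts and of mesothelium, was at 54.0 ± 16.1 in CX3CR1- against 56.7 ± 6.18 in CX3CR1+ cells, and the groups overlapped (log2FC -0.11, 95% interval -0.85 to 0.63, adjusted p = 0.853). The others of the list were not listed in the table or had means under 10.

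Keratin filaments are anchored at desmosomes and by linker proteins, and 7 of 9 tested genes of this equipment were called higher and 1 lower in CX3CR1- cells, with a median log2FC of 2.59 against -0.00349 over all tested genes. Dsp, the desmosomal protein that binds keratin, was at 626 ± 120 against 17.2 ± 20.1, a log2FC of 5.68 (adjusted p = 0.000139). Pkp3, a plakophilin of desmosomes, had one of 4.87 (adjusted p = 0.000179). Plec, the linker plectin that is also made outside epithelia, was at 886 ± 187 against 76.6 ± 18.6, a log2FC of 3.52 (adjusted p = 1.21e-05). Ppl, periplakin, was not called, with 102 ± 28.3 against 91.8 ± 6.88. The lower gene was Dst, dystonin, with a log2FC of -1.10 (adjusted p = 0.00353), and 0 genes of the list were called lower with quantile normalization, with equal totals without mitochondrial genes or without CX3CR1- replicate 2. In 4 of the 9 the CX3CR1+ mean was under 10.

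Non-keratin intermediate filaments were present in both groups. Vim, vimentin, the filament protein of leukocytes and mesenchyme, was at 3608 ± 535 in CX3CR1- against 1660 ± 71.9 in CX3CR1+ cells, a log2FC of 1.11 (standard error 0.15, adjusted p = 0.000529). Per kb Vim was at 1645 ± 244 in CX3CR1- cells, above the 937 ± 428 of Krt20. Gfap, the filament of glia, was the other of 2 genes called higher among 10 tested, with 61.8 ± 30.3 against 11.3 ± 1.76 and an adjusted p of 0.00692, and 1 was called without CX3CR1- replicate 3. Lmna, the nuclear lamin A/C, was not called (log2FC 0.42, adjusted p = 0.238).

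Villin and fimbrin, which bundle the actin core, had the highest values of the microvillus genes together with Ezr. Vil1 (chr1:74409376-74435559, plus strand, 20 exons) was at 1886, 1285 and 1265 in CX3CR1- and at 24.1, 14.5 and 13.2 in CX3CR1+ replicates. All CX3CR1+ libraries thus held it above the level of 3 reads, with about 79 reads in all, and the ratio of the CX3CR1- mean to the pooled CX3CR1+ level was 76.5 (95% counting interval 61.4 to 96.6). The log2FC was 6.36 (standard error 0.29, adjusted p = 1.45e-06). Vil1 overlaps Usp37 on the opposite strand, the library kit does not mark strand, and 0.592% of its 31-mers are shared. Usp37 was at 349 ± 74.1 in CX3CR1- against 370 ± 28.6 in CX3CR1+ cells and was not called (adjusted p = 0.782).

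Pls1 (chr9:95752642-95845311, minus strand, 16 exons) was at 2128, 1337 and 886 in CX3CR1- and at 0.406, 0.721 and 1.24 in CX3CR1+ replicates. The CX3CR1+ values were below 1 read per library, as estimated counts can be, and came to about 3 reads in all. The ratio of the CX3CR1- mean of 1451 ± 629 to the pooled level was 1976 (95% counting interval 676 to 9583), and the log2FC was 9.60 (standard error 0.40, adjusted p = 1.45e-06). In CX3CR1+ cells Pls1 was thus at the limit of detection at this depth, and it shares no 31-mer with another gene.

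Espn (chr4:152120331-152152371, minus strand, 12 exons), a further actin bundler, had the lowest level per kb of the 10 genes. It was at 110, 125 and 64.7 in CX3CR1- and at 9.37, 10.6 and 4.75 in CX3CR1+ replicates. With about 37 reads in CX3CR1+ cells it was measurable there, the ratio was 11.0 (95% counting interval 8.01 to 15.7) and the log2FC was 3.46 (standard error 0.45, adjusted p = 0.000352). Myo1a (chr10:127705170-127720940, plus strand, 27 exons) was at 520, 441 and 253 in CX3CR1- replicates and at 0.993, 0 and 0 in CX3CR1+ replicates, about 2 reads in all. The ratio was 827 (95% counting interval 229 to 6826), and the log2FC was 8.27 (standard error 0.49, adjusted p = 4.38e-06).

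Ezr (chr17:6738041-6782784, minus strand, 13 exons) differed from the other 9 genes in being well expressed by both populations. It was at 1889, 1475 and 1079 in CX3CR1- and at 320, 285 and 337 in CX3CR1+ replicates. The ratio of the group levels was 4.74 (95% counting interval 4.48 to 5.01, which leaves out the spread between libraries). The log2FC was 2.20 (standard error 0.22, limma 95% interval 1.71 to 2.69, adjusted p = 7.11e-05). It stayed between 2.01 and 2.43 in all 15 alternatives. Ezr overlaps Sytl3 on the opposite strand, and Sytl3 was at 44.9, 27.5 and 19.4 in CX3CR1- and at 7.58, 14.6 and 5.30 in CX3CR1+ replicates and was not called (adjusted p = 0.0542).

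Epcam (chr17:87635979-87651129, plus strand, 10 exons) was the steadiest of the 10 genes in CX3CR1- cells. It was at 299.5, 247 and 283 there and at 0, 2.46 and 0 in CX3CR1+ replicates, the latter being 3 reads in replicate 2. The ratio was 377 (95% counting interval 129 to 1827), and the log2FC was 7.51 (standard error 0.56, adjusted p = 1.28e-05). The highest CX3CR1+ value of 2.46 lay far under the lowest CX3CR1- value of 247.

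Several of these genes have close relatives, some of which leukocytes use. Of 16 tested paralogs, 10 were not called, 5 were called higher and 1 lower in CX3CR1- cells, and the median log2FC was 0.79. Of all 17812 tested genes, 12.2% were called higher and 8.15% lower. In 3 of the 16 the CX3CR1+ mean was under 10, namely Scin with 1.96, Avil with 6.68 and Myo1d with 8.41. These genes entered the test only through their CX3CR1- values and had to be higher there. Among the plastins, Lcp1, the leukocyte plastin, was at 3837 ± 487 in CX3CR1- against 8084 ± 1438 in CX3CR1+ cells, a log2FC of -1.07 (adjusted p = 0.00129) that lost its call after quantile normalization, with equal totals without mitochondrial genes (an alternative chosen after seeing the data), and without CX3CR1- replicate 1, CX3CR1+ replicate 2 or CX3CR1+ replicate 3. Pls3, the plastin of other solid tissues, was at 83.4 ± 18.4 and 50.7 ± 9.75 and was not called (adjusted p = 0.132). Per kb, Pls1 made up 39.3, 24.5 and 18.2% of the summed plastins in CX3CR1- replicates and 0.00651, 0.00831 and 0.0144% in CX3CR1+ replicates. Even in CX3CR1- cells Lcp1, at 999 ± 127 per kb, was above Pls1, at 392 ± 170 per kb.

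Neither relative of ezrin was called. Msn, moesin, the main protein of this family in leukocytes, was at 3407 ± 407 in CX3CR1- against 5037 ± 174 in CX3CR1+ cells, a log2FC of -0.57 (adjusted p = 0.0143) that did not reach the fold threshold. Rdx, radixin, had one of -0.53 (adjusted p = 0.0971). Ezr thus made up 37.3, 31.2 and 28.6% of the family per kb in CX3CR1- replicates and 6.49, 5.85 and 7.33% in CX3CR1+ replicates, and these shares did not overlap.

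Among the relatives of villin, which sever and cap actin, Scin, scinderin, had a log2FC of 4.20 (adjusted p = 0.00263), Capg one of 3.46 (adjusted p = 0.000330), Gsn, gelsolin, one of 2.27 (adjusted p = 0.00216) and Svil, supervillin, one of 1.07 (adjusted p = 0.0138). All 4 were called higher, and Avil, advillin, with 14.7 ± 5.46 against 6.68 ± 4.93, was not. Capg was at 410 ± 202 against 37.0 ± 20.8. Gsn was at 886 ± 483 against 165 ± 34.3, and it is abundant in fibroblasts, whose markers were higher in CX3CR1- cells as given further down. In CX3CR1- replicates 1, 2 and 3 Gsn was at 391, 910 and 1356, and the fibroblast markers summed to 6514, 3631 and 10934. The part of fibroblasts in the Gsn level was not tested. Of the class I myosins, Myo1d, which is found in brush borders, was called higher with a log2FC of 5.28 (adjusted p = 0.000807). The leukocyte myosins Myo1f and Myo1g, and Myo1c and Myo1e, were not called, with log2FCs from -0.77 to 0.69. The espin relative Espnl was not called either (adjusted p = 0.282).

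**Figure D2:**
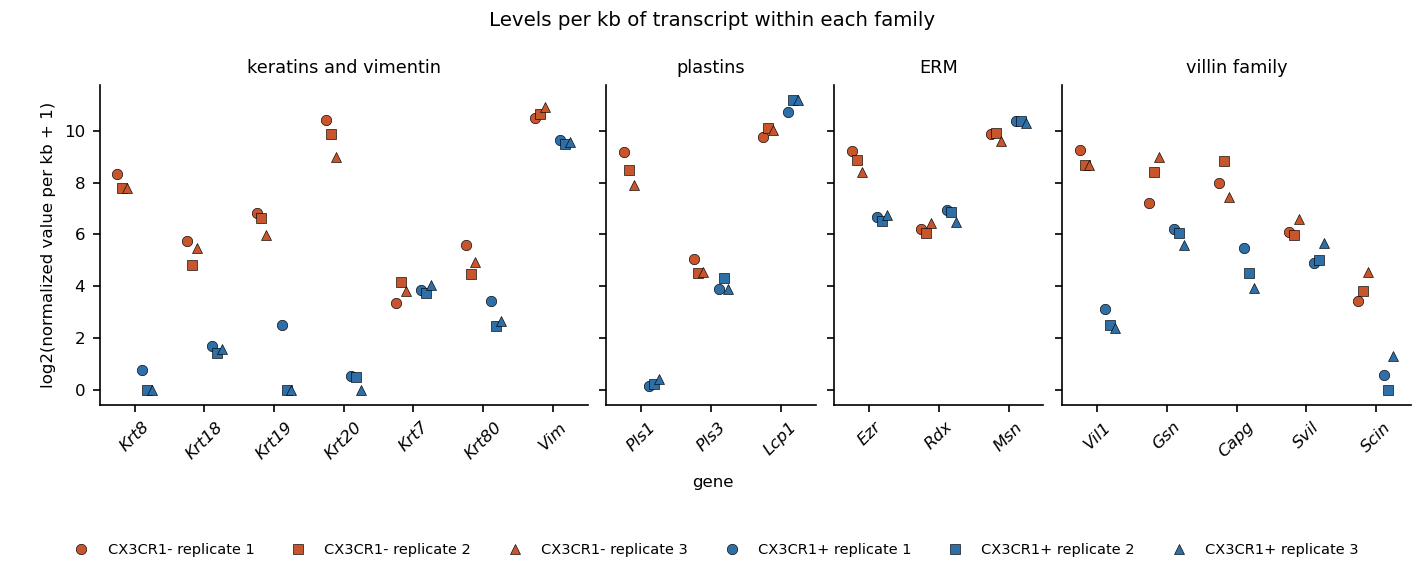
Level per kb of the longest coding transcript, as log2(normalized value per kb + 1), of the keratins with vimentin, the plastins, the ezrin, radixin and moesin family (ERM) and the villin family, with CX3CR1- libraries in orange and CX3CR1+ libraries in blue. Pls1, Ezr and Vil1 lie higher in the CX3CR1- libraries, whereas Lcp1 and Msn lie higher in the CX3CR1+ libraries.

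A brush border needs further genes that space, link and tip the microvilli, and 17 of 20 such genes were called higher and 0 lower in CX3CR1- cells (limma, adjusted p at most 0.05). Their median log2FC was 4.60, or 4.53 with the 5 genes listed at 0 in all CX3CR1+ libraries set to 3 reads per library there, against -0.00349 over all tested genes. In 13 of the 20 the CX3CR1+ mean was under 10. Cdhr5, a protocadherin that links microvillus tips, was at 334 ± 120 in CX3CR1- against 2.08 ± 3.60 in CX3CR1+ cells, a log2FC of 7.37 (adjusted p = 7.08e-05). Eps8l3 and Eps8l2, relatives of the tip protein Eps8, were at 193 ± 106 and 143 ± 48.9 in CX3CR1- cells and were listed at 0 in all CX3CR1+ libraries. The other 3 genes listed at 0 there were Ush1c, which scaffolds the tip links, Baiap2l2 and Tmigd1. Eps8 itself was at 2014 ± 389 against 1025 ± 122 and missed the fold threshold with a log2FC of 0.96 (adjusted p = 0.00418). Myo1e and Baiap2l1 were the others that were not called.

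**Figure D3:**
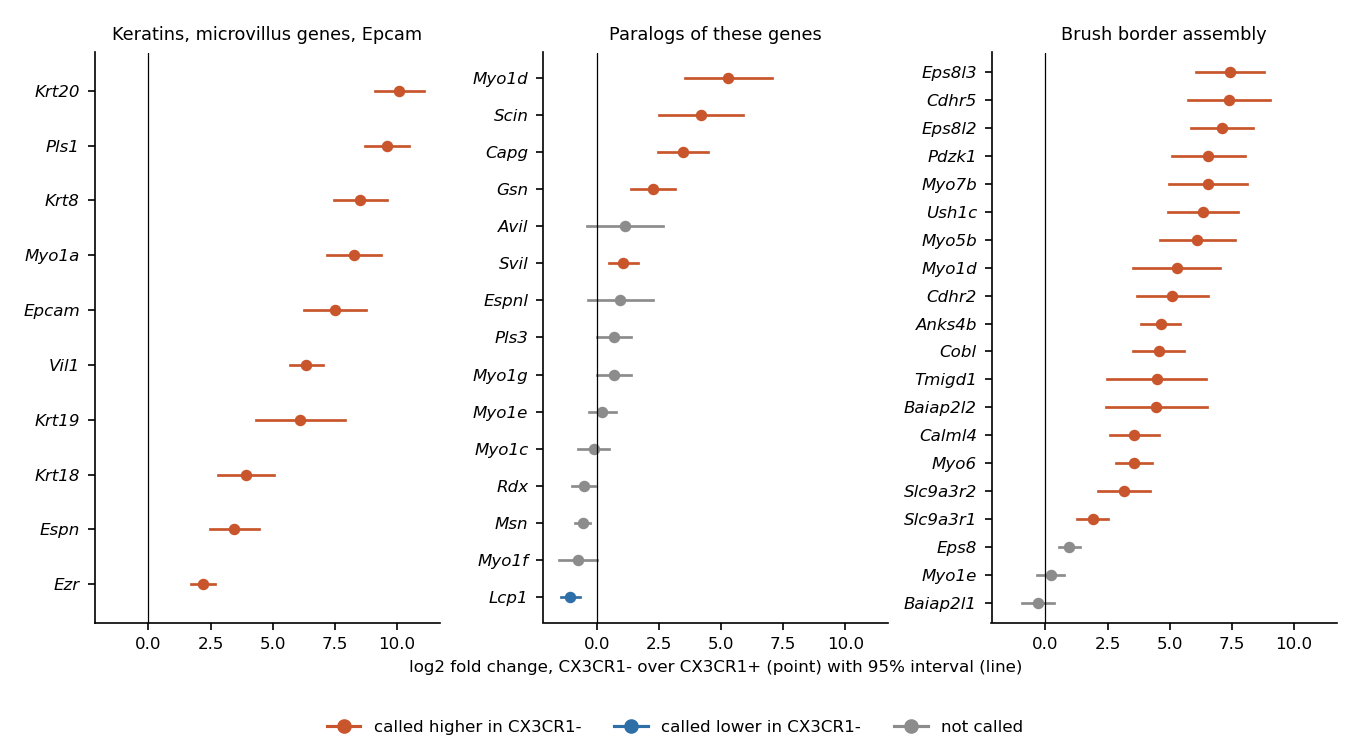
Log2 fold change of CX3CR1- over CX3CR1+ cells (points) with 95% intervals from limma (lines) for the 10 genes, 15 of their tested paralogs and the brush border genes, coloured by call. Ezr has the smallest fold change of the 10 genes at 2.20, while the paralogs run from -1.07 for Lcp1 to 5.28 for Myo1d. Fitted values of Eps8l3, Eps8l2, Ush1c, Baiap2l2 and Tmigd1, listed at 0 in CX3CR1+ libraries, depend on the pseudocount.

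Per kb, the order of the 10 genes in CX3CR1- cells ran from Krt20 over Vil1 with 473 ± 113, Ezr with 468 ± 128, Pls1 and Krt8 to Epcam with 136 ± 13.2, Myo1a with 118 ± 39.9, Krt19 and Krt18 and ended with Espn at 21.6 ± 6.79. Neighbours in this order overlapped between their libraries except at 3 steps, from Krt8 to Epcam, from Krt19 to Krt18 and from Krt18 to Espn. The length of the longest transcript enters these levels, and Espn has 3 RefSeq starts, so that its level per kb may be too low. In CX3CR1+ cells Ezr led with 99.3 ± 8.35 per kb.

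The 3 CX3CR1- libraries differed among themselves. The coefficient of variation over them ran from 9.77% for Epcam to 45.7% for Krt20, with a median of 30.4%. In 9 of the 10 genes replicate 1 was highest, the exception being Espn with replicate 2. Replicate 3 was lowest in 7 genes, and replicate 2 was lowest in Krt8, Krt18 and Epcam. The genes did not scale together, since Krt20 was 4.11, 4.27 and 2.23 times Krt8 and 8.75, 7.40 and 3.42 times Epcam in replicates 1, 2 and 3, on normalized values without length. Pls1 was 1.13, 1.04 and 0.701 times Vil1. With 3 libraries these ratios were not tested.

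**Figure D4:**
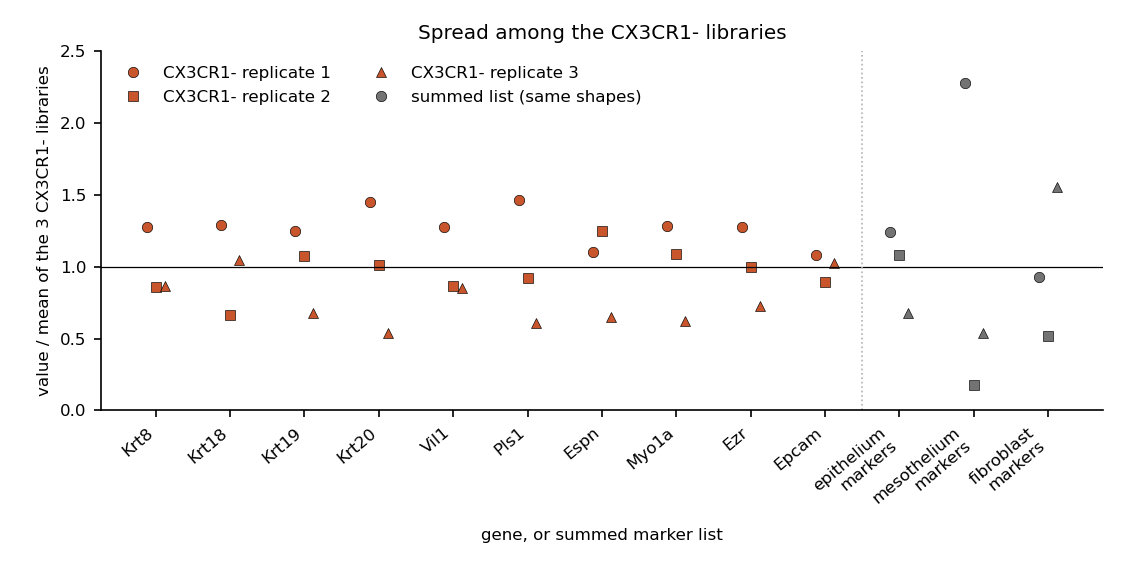
Value in each CX3CR1- library divided by the mean of the 3 CX3CR1- libraries, for each of the 10 genes (orange) and for the summed markers of epithelium, mesothelium and fibroblasts (grey). Replicate 1 is highest in 9 of the 10 genes and in the epithelium and mesothelium sums, and replicate 3 is highest in the fibroblast sum.

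Markers of other cells moved with these genes, and their part in the result was not tested. In bulk libraries fewer cells of a type and less RNA per cell cannot be told apart. Of 16 tested epithelium markers, 15 were called higher in CX3CR1- cells, with a median log2FC of 5.41, or 4.81 with genes at 0 set to 3 reads. In 12 of the 16 the CX3CR1+ mean was under 10, so that they too entered the test only through their CX3CR1- values. The summed level of the list lay between 16092 and 29447 in CX3CR1- and between 74.1 and 112 in CX3CR1+ libraries, and that of the 10 genes between 5393 and 10345 and between 317 and 368. Fabp2, the fatty acid binding protein of enterocytes, was at 18240 ± 4921 against 4.30 ± 4.40, and Fabp1 at 2073 ± 1307 against 0.736 ± 0.698. Muc2, the mucin of goblet cells, was at 1443 ± 719 against 4.49 ± 3.54. Trpm5, a tuft cell channel, was not called (adjusted p = 0.0716), and Cldn3, Phgr1, Alpi, Tff3 and Olfm4 were listed at 0 in all CX3CR1+ libraries.

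Mesothelium, which also makes Krt8, Krt18 and Krt19, had a summed marker level of 926, 72.7 and 219 in CX3CR1- replicates 1, 2 and 3 and of 102, 31.4 and 60.0 in CX3CR1+ replicates, so that the groups overlapped. In CX3CR1- replicate 2, the library with the lowest sum of its group, 3 of the 8 markers (Msln, Upk3b and Bnc1) were listed at 0, Muc16 was at 26.7, Lrrn4 at 12.5 and Gpm6a at 8.94, Wt1 was also detected, and Upk1b, at 3.58, was under the 5.36 of 3 reads. Of 5 tested mesothelium markers only Wt1 was called higher (log2FC 3.52, adjusted p = 0.00469), and 4 were without CX3CR1- replicate 2. In 3 of the 5 the CX3CR1+ mean was under 10. Muc16 was not called, with 241 ± 299 against 31.6 ± 22.6.

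Other marker lists showed that epithelial genes were not alone in this direction. All 6 dendritic cell markers were called higher, Cd209a with a log2FC of 4.99 and Clec9a with one of 4.24, and so were all 5 fibroblast markers, whose sum lay between 3631 and 10934 in CX3CR1- and between 165 and 278 in CX3CR1+ libraries. Of 5 tested lymphocyte markers 4 were called higher, the plasma cell gene Jchain among them with 1654 ± 1083 against 10.4 ± 1.72. Of 4 endothelium markers 3 and of 5 markers of neurons and glia 2 were called higher, the latter count being 0 without CX3CR1- replicate 1, CX3CR1- replicate 3 or CX3CR1+ replicate 3 and 1 without CX3CR1+ replicate 2. The CX3CR1+ mean was under 10 in 2 of the tested genes in each of the lymphocyte, endothelium and neuron and glia lists. Of 5 smooth muscle markers 0 were called by limma in either direction, and Acta2 was at 487 ± 213 against 582 ± 152. Of the 6 genes for leukocytes and the gate, Cx3cr1 and H2-Aa, an MHC class II chain (adjusted p = 0.000243), were called lower. Without CX3CR1- replicate 1, CX3CR1- replicate 3 or CX3CR1+ replicate 1, 1 gene was. The MHCII genes Cd74, H2-Ab1 and H2-Eb1 were lower too but missed the fold threshold. Their log2FCs were -0.85, -0.64 and -0.94 (limma, adjusted p = 0.000694, 0.00360 and 0.000519).

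**Figure D5:**
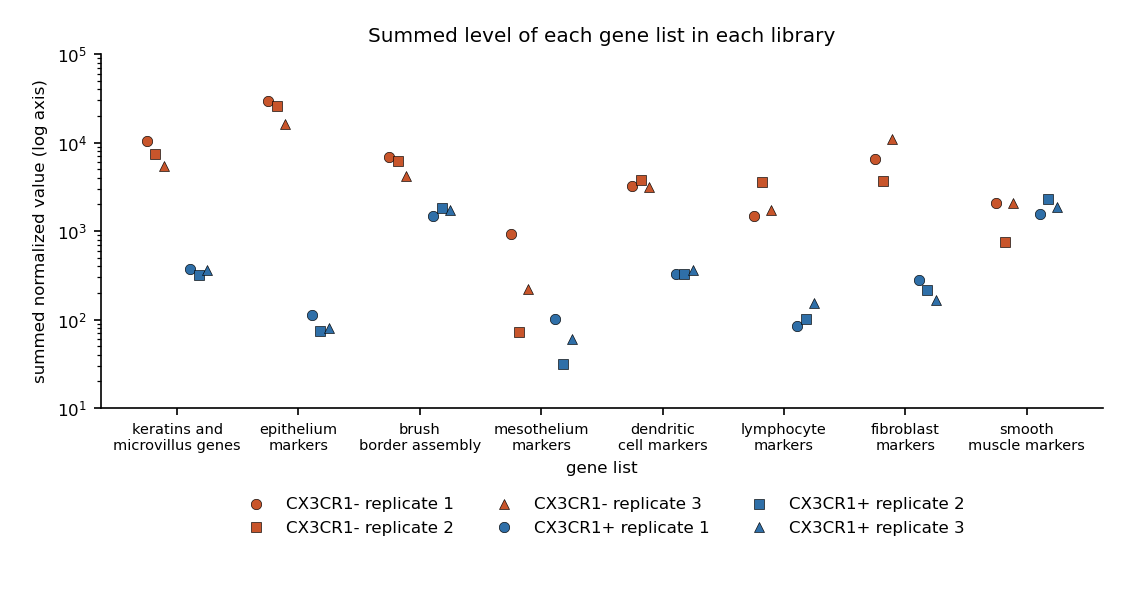
Summed normalized value (log axis) of the 10 keratin and microvillus genes and of 7 marker or gene lists in each library, with CX3CR1- libraries in orange and CX3CR1+ libraries in blue. The sum of the 10 genes and that of the epithelium markers lie higher in all CX3CR1- libraries, whereas the mesothelium and smooth muscle sums overlap between the groups.

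Transcription factors of the gut and of epithelia in general were taken as a further list, which also held the splicing regulators Esrp1 and Esrp2. Several of the factors are known to act on brush border genes. Of 13 tested genes of this list, 10 were called higher and 0 lower in CX3CR1- cells by limma. The median log2FC was 4.65, or 3.91 with genes at 0 set to 3 reads, and in 9 of the 13 the CX3CR1+ mean was under 10. Esrp2 was among those called, with a log2FC of 1.67 (limma, adjusted p = 0.0337). So was Klf4, which was expressed in both groups with 1263 ± 100 against 630 ± 59.8. Hnf4a was at 413 ± 229 against 1.42 ± 2.45, a log2FC of 7.73 (adjusted p = 3.89e-05), and Hnf4g had one of 7.28 (adjusted p = 9.27e-06). Klf5, a factor of crypt cells, was at 247 ± 12.3 against 3.76 ± 1.69, a log2FC of 5.76 (adjusted p = 7.09e-06). Ehf, an ETS factor of epithelia, was at 76.6 ± 22.7 against 32.7 ± 21.9 and was not called (adjusted p = 0.0658).

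The genes most like the 10 were sought among all other tested genes by the Euclidean distance between their centred log2(value + 1) over the 6 libraries and the mean of the 10. The closest were Slc34a2, a phosphate transporter, with a distance of 0.585, Trim31 with 0.610, Erich4 with 0.638, the calcium-activated chloride channel regulator Clca4a with 0.649 and the sulfotransferase Sult1d1 with 0.676. The first 4 of these were listed at 0 in all CX3CR1+ libraries, and Trim31 was at 111, 106 and 85.8 in CX3CR1- replicates. The distances of the 10 genes themselves to their mean ran from 0.426 for Vil1 to 5.43 for Ezr, so that Vil1 was the nearest to the common profile and Ezr the farthest from it.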

How the data were processed

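Bulk RNA-seq values of 6 libraries were analysed, 3 of MHCIIhi CX3CR1- and 3 of MHCIIhi CX3CR1+ cells, grouped by sample title. The authors pseudoaligned 75 bp single reads to mm10 with GENCODE M16 by Kallisto, added up the estimated counts of each gene and scaled them with DESeq2. What was deposited is thus signal normalized between libraries. A count test was not run, because 42.6 to 44.7% of the values above 0 were whole multiples of a library's step (tolerance 0.01). The 17812 of 26110 genes whose mean over all libraries reached 10 were tested with limma 3.58.1 in R 4.3.3 (lmFit, eBayes with trend) on log2(value + 1), with two-sided p-values adjusted after Benjamini and Hochberg, beside exact permutation tests. Fold changes are on this scale and understate the change of low genes. The procedure was tested on simulated data. Reads were estimated from the step, and 95% intervals of ratios are exact Poisson intervals of the CX3CR1+ reads and cover counting error only, as does the level of 3 reads. Transcript length, positions and shared 31-mers came from GENCODE M21 (GRCm38), promoters from RefSeq (GRCm38.p6), which matched 9 of the 10 genes. Plots were drawn with matplotlib 3.10.9.

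The 10 genes and all lists were chosen with earlier results of these data known. All 10 are named, and of each list the 3 called genes with the largest absolute log2FC and the not called gene with the highest mean, all tested paralogs but 1, which is not reported here, and the 5 genes nearest to the mean profile. Genes named beyond this rule, such as Dst, Ptprc and the genes listed at 0, were chosen after their values were seen. Alternatives were pseudocounts of 0.5 and 10, no filter, a mean of at least 50, quantile and median-of-ratios normalization, no trend, and leaving out each library. Equal totals without mitochondrial genes and a block of adjacent library numbers were added after seeing the data.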

Additional observations from a re-analysis of the deposited data

How the results depend on the processing

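The 10 genes were called higher in all 15 alternatives in which they were tested, with the exception that Krt18 did not enter the test at a mean of at least 50, and no fold change of the 10 turned its direction. The median of all genes moved by over 0.1 with quantile normalization, to -0.15, and with equal totals without mitochondrial genes, an alternative chosen after seeing the data, to 0.17. With a mean of at least 50, fewer genes were tested, and the genes called higher numbered 1232 of all genes in place of 2177, 1 other intermediate filament, 3 keratin anchors, 4 epithelial transcription factors, 9 epithelium markers, 0 mesothelium markers, 0 markers of neurons and glia and 1 endothelium marker. With quantile normalization 0 keratin anchors, 0 paralogs and 4 leukocyte and gate markers were called lower and 1 marker of neurons and glia higher, which was also 1 without the trend. With equal totals without mitochondrial genes 0 keratin anchors, 0 paralogs and 1 leukocyte and gate marker were called lower. The cause of these shifts was not tested. With 1 library left out, other intermediate filaments called higher ranged from 1 to 2, keratin anchors called lower from 0 to 1, paralogs called lower from 0 to 2, mesothelium markers called higher from 1 to 4, leukocyte and gate markers called lower from 1 to 3 and markers of neurons and glia called higher from 0 to 3. Where this left 2 libraries in a group, the spread was pooled over both groups. The other 628 values kept their direction and side of the threshold or stayed within 1.5 times. The labels give no pairing, but each CX3CR1- library number has a CX3CR1+ library number next to it, which makes 3 pairs. With these pairs as a replicate block, an alternative added after seeing the data, 2165 genes were called higher and 1445 lower, the 10 genes stayed called, mesothelium markers called higher rose from 1 to 3, and no other count of a list changed. Deviations from the group means correlated across genes at 0.10, 0.04 and 0.01 within the pairs, and not every library correlated best with its neighbour, so that the pairs were not taken as a shared source. Depth limits the CX3CR1+ level of 5 of the 10 genes, which were at or under 3 reads in every library there.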
